A study of Mus musculus with 2 samples.

Results

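Transcripts of 10 genes that encode growth factors made by macrophages were followed in activated mouse macrophages labelled as knockout or wild type for the inhibitory receptor SIRPα. They were taken by symbol from the deposited tables: the platelet-derived growth factor chains Pdgfa and Pdgfb, Edn1, Vegfa, Hbegf, Igf1, the colony-stimulating factors Csf1, Csf2 and Csf3, and Il15. All 10 were found among the 16263 genes of the tables. The SIRPα-KO group consists of 1 RNA library of bone marrow-derived macrophages from SIRPα-/- mice, and the WT group of 1 such library from wild-type mice, both on the C57BL/6 background. Each library pooled the cells of 5 mice. In both groups the marrow cells had been differentiated for 5 days with M-CSF, the protein product of Csf1, and activated for 6 h with 20 ng/ml interferon-γ and 100 ng/ml LPS while mCD47.ex was present. The labels do not describe mCD47.ex further, and they give neither the age of the mice nor the structure of the mutant allele. With 1 pooled library per genotype there is no replicate error and no test: every difference below describes these 2 libraries.

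These factors are how macrophages act on the cells around them. PDGF chains, endothelin-1, VEGF-A, HB-EGF and IGF-1 act on fibroblasts, vessels and epithelium during tissue repair, mostly through receptor tyrosine kinases. The colony-stimulating factors control the survival and output of myeloid cells, and interleukin-15 supports natural killer cells and memory T cells. Several of the ligands are made as precursors or membrane-bound forms that a protease must cut before they are active.

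Sirpa, the targeted gene, was at 71.5 FPKM (fragments mapped per kilobase of transcript at a common library size, the unit inferred for the deposited values) in the SIRPα-KO library, against 154 FPKM in the WT library. The transcript was therefore 2.15-fold lower but still present, and SIRPα-KO below names the label. The steps between low values correspond to about 11200000 reads in each library. Xist was at 0.91 FPKM in the SIRPα-KO library and at 47.5 FPKM in the WT library, while the Y-linked Eif2s3y was at 21.4 FPKM in the SIRPα-KO library and listed at 0 in the WT library, so genotype and the sex of the pooled mice cannot be told apart. All 10 macrophage markers examined were detected in both libraries, with a summed level of 11038 FPKM in SIRPα-KO and 11259 FPKM in WT. Lyz2 was the most abundant of them (7208 and 7106 FPKM) and made up most of both sums. Without Lyz2 the sums were 3831 FPKM in SIRPα-KO and 4153 FPKM in WT, with 3 markers higher and 6 lower in SIRPα-KO. Csf1r alone among the 10 differed by more than 2-fold, at 110 FPKM in SIRPα-KO and 248 FPKM in WT.

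The growth factor transcripts did not move as a block. The vascular and mesenchymal factors Pdgfb, Pdgfa and Edn1 were lower in SIRPα-KO macrophages by 12.2-fold, 10.01-fold and 2.89-fold. Vegfa was at the edge of a 2-fold difference, and Hbegf and Igf1 were lower by less. Csf1 and Il15 were higher, both by less than 2-fold, and Csf2 and Csf3 were barely detected. A gene was called when its log2 ratio of (FPKM + 1), SIRPα-KO over WT, reached 2-fold and it had at least 1 FPKM in 1 library or more. Of the 10 factors, 8 passed that minimum, of which 3 were called lower and 0 higher. Among all 10092 genes that passed it, 4.30% were called lower and 3.43% higher. The median log2 ratio was -0.82 over these 8 factors and 0.06 over all genes that passed. The factors were chosen with earlier results of these data known, so these shares and medians only describe them. In bulk RNA, fewer cells making a transcript and less transcript per cell cannot be told apart.

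**Figure D1:**
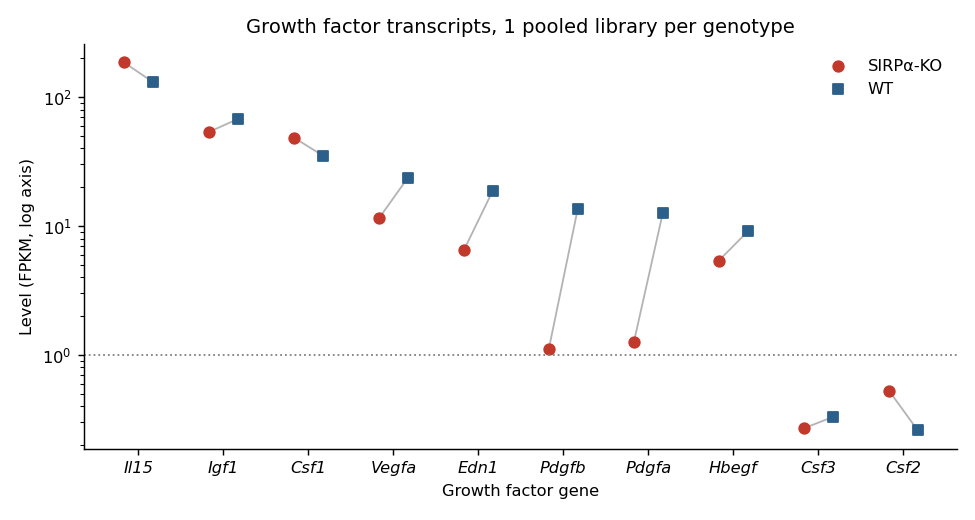
Level of each growth factor transcript (FPKM, log axis) in the SIRPα-KO library (red circles) and the WT library (blue squares), genes ordered by their WT level; each point is 1 library of 5 pooled mice, so there are no error bars, and the dotted line marks the minimum of 1 FPKM. Pdgfb and Pdgfa stand at 1.12 and 1.26 FPKM in SIRPα-KO against 13.6 and 12.6 FPKM in WT, whereas Il15 and Csf1 are higher in SIRPα-KO.

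The summed level of the 10 transcripts was nearly equal, 314 FPKM in SIRPα-KO and 312 FPKM in WT, but its makeup differed. Il15 contributed 59.1% of the sum in SIRPα-KO and 41.9% in WT. The PDGF chains Pdgfa and Pdgfb contributed 0.40% and 0.36% in SIRPα-KO, against 4.04% and 4.37% in WT. The order of the 5 most abundant factors, Il15, Igf1, Csf1, Vegfa and Edn1, was the same in both libraries. Below them, Pdgfb ranked 8 of 10 in SIRPα-KO and 6 of 10 in WT. No spread is available to say which neighbours in these orders differ.

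**Figure D2:**
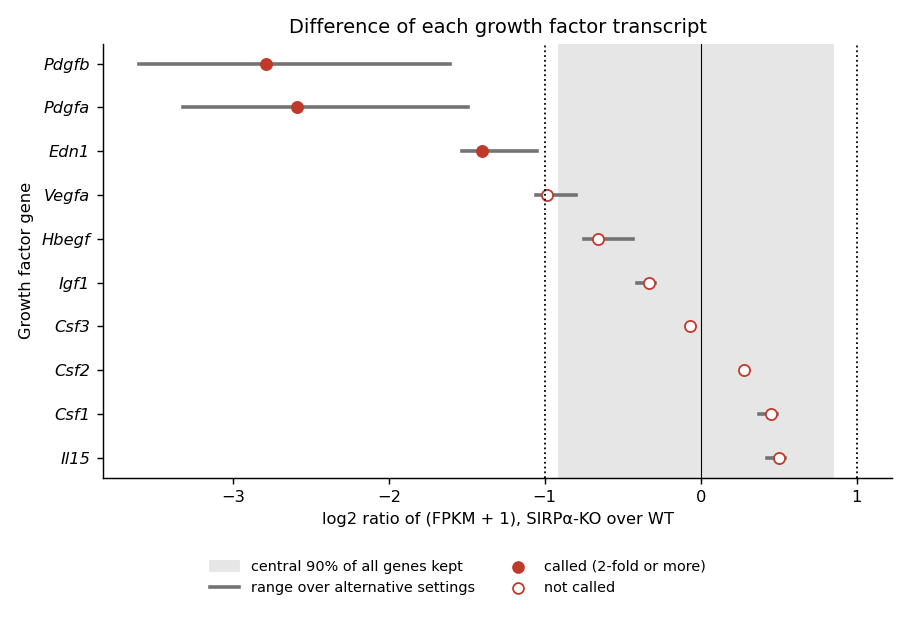
log2 ratio of (FPKM + 1), SIRPα-KO over WT, for each growth factor transcript (filled circle, called at 2-fold or more; open circle, not called), with the range over the alternative settings as a bar and the central 90% of all genes passing the minimum as a grey band; dotted lines mark 2-fold. Pdgfb (-2.79), Pdgfa (-2.59) and Edn1 (-1.40) lie beyond 2-fold under each pseudocount, scaling and minimum tried, and Vegfa (-0.98) straddles the line; Csf3 and Csf2 were below the minimum and have no bar.

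Pdgfb, which encodes the B chain of platelet-derived growth factor, was at 1.12 FPKM in SIRPα-KO and 13.6 FPKM in WT, a log2 ratio of -2.79. These levels stand for about 37 reads in SIRPα-KO and 451 reads in WT, and the ratio SIRPα-KO over WT of 0.082 had a 95% interval of 0.057 to 0.116 (exact binomial, counting error only). Pdgfa, the A chain, was at 1.26 FPKM in SIRPα-KO and 12.6 FPKM in WT, a log2 ratio of -2.59. It was represented by about 29 reads in SIRPα-KO and 292 reads in WT, a ratio of 0.0999 (0.066 to 0.146). The A and B chains, which pair as AA, AB or BB dimers, were thus lower by a similar factor, and their intervals overlapped. Of the 10092 genes that passed the minimum, Pdgfb had the 26th lowest log2 ratio and Pdgfa the 32nd lowest. In SIRPα-KO, Pdgfb was more abundant than 42.0% of all listed genes and in WT than 78.7%.

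The genes around them on the chromosome are set beside all genes that passed the minimum. Of those, 4.30% were called lower and 3.43% higher, so few calls are usual among 10 genes. Among the 10 nearest genes around Pdgfb on chromosome 15 that passed the minimum, 0 were called and log2 ratios ran from -0.40 to 0.79. Around Pdgfa on chromosome 5, 1 of 10 was called lower, log2 ratios ran from -1.89 to 0.47 and the median was 0.00. None of the 50-base words of Pdgfa or Pdgfb (0%) occurred in another annotated gene, so no near-identical copy was found for either. Exons of Pdgfa overlap an antisense gene, 6330403L08Rik, in the later mouse annotation, and the use of strand in counting is not given in the sources used here.

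The other genes of the PDGF system went in different directions. Furin, the convertase that cuts the precursors of PDGF-A and PDGF-B, was at 31.1 FPKM in SIRPα-KO and 206 FPKM in WT, 6.62-fold lower. Pdgfc, a related ligand that other proteases activate, was at 3.63 FPKM in SIRPα-KO and 0.90 FPKM in WT, a log2 ratio of 1.29, and Pdgfd was at 0.05 FPKM in both. Of the receptors, Pdgfrb was at 1.0 FPKM in SIRPα-KO and 1.77 FPKM in WT, and Pdgfra at 0.05 and 0.08 FPKM. Receptor transcripts were thus scarce in these cultures. Platelets and stromal cells also make PDGF. The summed level of 8 megakaryocyte and platelet markers was 182 FPKM in SIRPα-KO and 56.1 FPKM in WT, with Pf4 at 148 and 37.3 FPKM, and all 8 were higher in SIRPα-KO. That of 12 stromal and endothelial markers was 39.2 FPKM in SIRPα-KO and 30.3 FPKM in WT, with Kdr the most abundant and Tek listed at 0 in both. Without Kdr these stromal and endothelial sums were 19.5 FPKM in SIRPα-KO and 18 FPKM in WT, and of the 10 markers that passed the minimum, 5 lay above and 5 below equality. The part of either cell type in the PDGF levels was not tested.

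**Figure D3:**
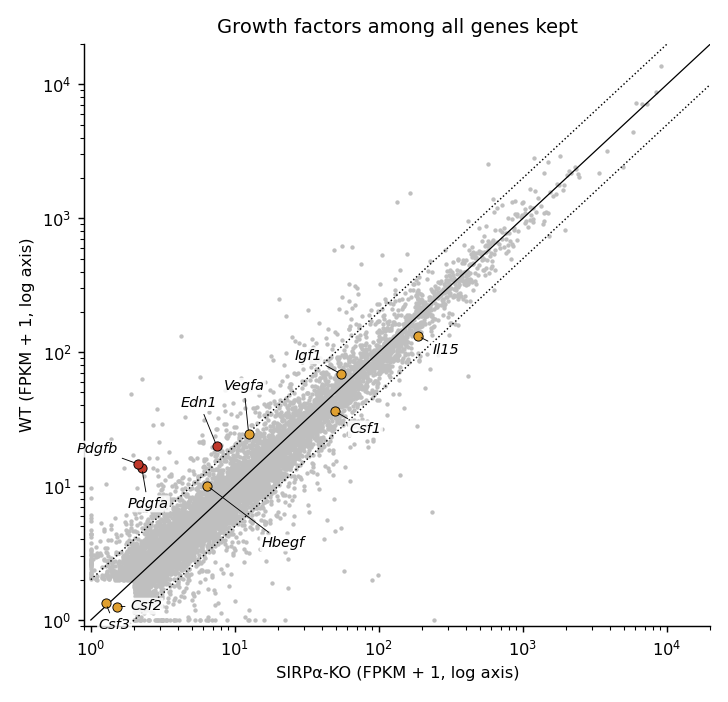
Level of each of the 10092 genes that passed the minimum in SIRPα-KO (x axis) and WT (y axis), as FPKM + 1 on log axes, with the growth factors marked (red, called; orange, not called; Csf2 and Csf3 are drawn although they were below the minimum). Dotted lines mark 2-fold; Pdgfb and Pdgfa lie together far above the upper line, at 13.6 and 12.6 FPKM in WT, and Edn1 nearer to it.

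Edn1 encodes the precursor of endothelin-1, a vasoconstrictor peptide that activated macrophages release. It was at 6.5 FPKM in SIRPα-KO and 18.8 FPKM in WT, a log2 ratio of -1.40. About 155 reads in SIRPα-KO and 452 reads in WT gave a ratio of 0.346 (95% interval 0.286 to 0.415, counting error only). Ece1, the endothelin-converting enzyme that makes the active peptide, differed in the opposite direction, at 44.1 FPKM in SIRPα-KO and 11.9 FPKM in WT, 3.71-fold higher. The proendothelin cut that comes before it is a furin-type cleavage, and Furin was lower as given above. The receptor Ednrb was at 8.57 FPKM in SIRPα-KO and 6.53 FPKM in WT, while Ednra was at 0.05 and 0.02 FPKM. The 10 nearest genes around Edn1 on chromosome 13 had 0 calls and log2 ratios of -0.54 to 0.75. Over all genes that passed the minimum, 4.30% were called lower and 3.43% higher. An antisense gene, Gm47118, overlaps exons of Edn1 in the later annotation.

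The sequences upstream of Edn1, Vegfa and Csf1 are shown because these genes have an annotated start whose preceding 250 bases hold no annotated exon, and because they differ: Edn1 was lower, Vegfa close to 2-fold lower and Csf1 modestly higher. Csf2, which was below the minimum, also has such a window, and it is not printed. They are given 5′ to 3′ up to the base before the start, from RefSeq on the GRCm38.p6 build, which is later than the mm9 build of the submitters' processing notes. Capitals mark matches, on either strand, to 4 motifs: GGANTTNCC (an NF-κB element), TGANTCA (AP-1), GGGCGG (a GC box) and ACGTG (the hypoxia response core).

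Edn1 promoter, chr13:42301226-42301475, plus strand: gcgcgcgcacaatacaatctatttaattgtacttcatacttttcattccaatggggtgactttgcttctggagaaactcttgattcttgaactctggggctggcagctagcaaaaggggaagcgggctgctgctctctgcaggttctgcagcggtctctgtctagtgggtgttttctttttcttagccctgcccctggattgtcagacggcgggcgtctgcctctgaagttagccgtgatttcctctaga

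Vegfa promoter, chr17:46032378-46032627, minus strand: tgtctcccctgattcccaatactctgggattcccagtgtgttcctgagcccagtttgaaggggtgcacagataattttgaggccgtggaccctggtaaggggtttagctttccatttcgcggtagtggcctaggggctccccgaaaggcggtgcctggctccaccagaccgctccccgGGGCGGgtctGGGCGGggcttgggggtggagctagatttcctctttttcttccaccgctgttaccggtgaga

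Csf1 promoter, chr3:107760470-107760719, minus strand: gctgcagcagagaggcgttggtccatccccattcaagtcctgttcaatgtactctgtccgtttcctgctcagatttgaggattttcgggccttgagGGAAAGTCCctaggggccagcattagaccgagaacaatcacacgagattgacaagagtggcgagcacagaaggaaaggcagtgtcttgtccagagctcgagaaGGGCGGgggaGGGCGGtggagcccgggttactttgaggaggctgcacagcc

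Csf1 held 1 match to the NF-κB motif, GGAAAGTCC on the printed strand, at -154 to -146 from the start, a motif present in 3.15% of 32851 promoter windows of the same length. Pdgfa, which was called lower, also held 1 match, GGATTTACC at -187 to -179 from one of its annotated starts, in a window that overlaps annotated exons and is not printed. Csf1 and Vegfa each held 2 GC boxes, which occur in 32.7% of windows, and the Csf2 window held 1, at -77 to -72. The Edn1 window held none of the 4 motifs, which says only that these letters are not in these bases. AP-1 matches occurred in 6.75% of all windows and hypoxia cores in 16.6%, and neither was found in the 3 windows printed. A hypoxia core did lie at -211 to -207 from another annotated start of Vegfa, and an AP-1 match at -37 to -31 from a start of Igf1. Both of those windows overlap annotated exons and are not printed. Some of these starts are not where the matching GENCODE transcripts begin. The nearest such beginning was 232 bases away for Csf2, 218 for Igf1, 6727 for that other Vegfa start and 93 for that Pdgfa start. Promoter windows were matched for 6 of the 10 factors, and Pdgfb, Hbegf, Csf3 and Il15 had no entry.

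Vegfa encodes the main growth factor of blood vessels, which hypoxia and LPS induce in macrophages. It was at 11.5 FPKM in SIRPα-KO and 23.6 FPKM in WT. The plain ratio was 2.06-fold lower, but the log2 ratio with the pseudocount was -0.98, just short of the limit. Kdr, the main signalling receptor for VEGF-A, was at 19.7 FPKM in SIRPα-KO and 12.3 FPKM in WT, and Flt1 at 1.13 and 1.10 FPKM. The co-receptors differed from each other, with Nrp1 at 18.4 FPKM in SIRPα-KO and 33.0 FPKM in WT and Nrp2 at 157 and 118 FPKM. None of these 4 receptors reached 2-fold. Among 15 other hypoxia-inducible genes, 13 passed the minimum, of which 3 were called lower and 0 higher. Over all genes that passed it, 4.30% were called lower and 3.43% higher. The median log2 ratio of these 13 was -0.08 (0.06 over all genes). The lower ones, Pfkfb3 (25.3 FPKM in SIRPα-KO, 119 in WT), Slc2a1 (37.6 and 89.0 FPKM) and Hk2 (18.1 and 39.7 FPKM), act in glucose uptake and glycolysis. The members that were not called lay on both sides of equality. Ndrg1 was at 21.1 FPKM in SIRPα-KO and 11.4 FPKM in WT and Adm at 1.37 and 0.65 FPKM, whereas Bnip3 was at 41.2 FPKM in SIRPα-KO and 60.9 FPKM in WT. Pgk1 (245 FPKM in SIRPα-KO, 232 in WT) and P4ha1 (56.1 and 59.2 FPKM) were nearer to equal. Vegfa has 6 RefSeq transcripts in the tables and 1 value, so its splice forms cannot be compared.

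Hbegf, the membrane-anchored ligand of the EGF receptor, was at 5.4 FPKM in SIRPα-KO and 9.08 FPKM in WT, a log2 ratio of -0.66. About 143 reads in SIRPα-KO and 242 reads in WT gave a ratio of 0.595 (95% interval 0.480 to 0.734, counting error only). The machinery that sheds it was abundant and short of 2-fold: Adam17, the main sheddase, was at 73.8 FPKM in SIRPα-KO and 91.3 FPKM in WT. Its cofactor Rhbdf2 was at 66.2 FPKM in SIRPα-KO and 73.9 FPKM in WT. Cd9, a membrane partner of the uncut ligand, was at 44.6 and 80.4 FPKM. Egfr itself was at 0.37 FPKM in SIRPα-KO and 0.26 FPKM in WT, below the minimum. Other EGF-family ligands were scarce: Btc was at 1.57 FPKM in SIRPα-KO and 1.09 FPKM in WT, and Areg, Egf and Tgfa were at most 0.08 FPKM in either library.

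Igf1, which repair-type and resident macrophages secrete, was the second most abundant factor in both libraries, at 53.6 FPKM in SIRPα-KO and 67.6 FPKM in WT, a log2 ratio of -0.33. Igfbp4, a binding protein that limits access of IGF-1 to its receptor, was at 27.8 FPKM in SIRPα-KO and 10.2 FPKM in WT, 2.72-fold higher and called. Igfbp7 was at 5.70 FPKM in SIRPα-KO and 4.27 FPKM in WT, not called. The receptor Igf1r was at 1.18 FPKM in SIRPα-KO and 0.55 FPKM in WT, a log2 ratio of 0.49. In SIRPα-KO the ligand transcript was therefore the lower one and the transcript of its most abundant binding protein the higher one.

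Csf1, the factor that keeps macrophages alive, was at 48.5 FPKM in SIRPα-KO and 35.2 FPKM in WT, a log2 ratio of 0.45. Its receptor differed the other way: Csf1r was at 110 FPKM in SIRPα-KO and 248 FPKM in WT, 2.25-fold lower. Csf1 and Csf1r encode a ligand and its receptor, and their transcripts lay on opposite sides of equality. The medium already contained M-CSF protein in both groups. Il34, the alternative ligand of the receptor, was at 0.16 FPKM in SIRPα-KO and 0.05 FPKM in WT.

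Csf2 and Csf3 encode GM-CSF and G-CSF, which LPS can induce in macrophages. Csf2 was at 0.53 FPKM in SIRPα-KO and 0.26 FPKM in WT, about 5 and 2 reads, and the ratio of 2.04 had an interval of 0.412 to 26.4 from counting error alone. Csf3 was at 0.27 FPKM in SIRPα-KO and 0.33 FPKM in WT, about 4 and 5 reads, a ratio of 0.818 (0.160 to 3.74). A difference in either gene was not detectable at this depth, and an antisense gene, Gm12223, overlaps exons of Csf2 in the later annotation. Their receptors were abundant. Csf2rb, the shared β chain of the GM-CSF receptor, was at 129 FPKM in SIRPα-KO and 288 FPKM in WT, 2.24-fold lower and called. Csf2rb2, the related chain specific for interleukin-3, was at 184 FPKM in SIRPα-KO and 329 FPKM in WT. The values of Csf2rb and Csf2rb2 are uncertain. Of their 50-base words, 12.3% for Csf2rb and 18.9% for Csf2rb2 also occur in another gene, mostly in each other. Csf2ra, the specific chain, was at 96.2 FPKM in SIRPα-KO and 111 FPKM in WT, and Csf3r, the G-CSF receptor, at 54.8 and 94.7 FPKM, both short of 2-fold. Csf3r is also a granulocyte gene. The summed level of 11 neutrophil markers was 210 FPKM in SIRPα-KO and 437 FPKM in WT, with S100a9 the most abundant (98.1 and 202 FPKM). Without S100a9 the sums were 111 and 235 FPKM. Of the 10 markers that passed the minimum, 5 were called lower and 0 higher (4.30% and 3.43% of all genes). Mpo (3.34 FPKM in SIRPα-KO, 2.38 in WT) and Cxcr2 (11.7 and 8.66 FPKM) went the other way without being called. The part of such cells in Csf3r and the other lower transcripts was not tested.

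Transcripts of Csf2 and Csf3 are textbook cases of messages held short-lived by AU-rich elements, repeats of AUUUA in the 3′ UTR that decay proteins bind. The 30 bases richest in this word are shown for them and for the called members that hold it. They come from the GENCODE transcripts (DNA letters, 5′ to 3′, ATTTA in capitals, overlapping copies counted). The heading of each line names that window only. The Pdgfb and Edn1 windows hold 2 separate copies each. The word occurs in 70.0% of genes with a 3′ UTR of at least 100 bases, so its presence alone does not mark a working element.

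Csf2 AU-rich element: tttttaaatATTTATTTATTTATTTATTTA

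Csf3 AU-rich element: gatagtttATTTAtctctATTTAatATTTA

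Pdgfb AU-rich element: aatgtaaagtttATTTAtattccgtATTTA

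Edn1 AU-rich element: ttttatagatATTTAtattcaaacaATTTA

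The 3′ UTR of Csf2 is 317 bases long and holds 9 copies, 28.4 per kb, more than 99.97% of 14075 genes with a 3′ UTR of at least 100 bases. That of Csf3 holds 6 copies in 669 bases, 8.97 per kb. Of the genes called lower, Pdgfb has 3 copies in 1408 bases (2.13 per kb, above 66.9% of genes), Edn1 has 3 in 1111 bases (2.70 per kb, above 76.3%) and Pdgfa has 0 in 1203 bases. The median over genes is 1.32 per kb, so Pdgfb and Edn1 lie above it and below Csf2 and Csf3. Of the other members not called, Vegfa holds 9 copies in 1865 bases, 4.83 per kb, above 93.1% of genes. Il15 holds 3.55 per kb (above 85.6%), Igf1 2.85 (78.2%), Hbegf 2.75 (77.0%) and Csf1 1.89 (62.5%). Vegfa, Il15, Igf1 and Hbegf thus lie above both Pdgfb and Edn1, so a high density was not particular to the called members. Of 11 RNA-binding proteins of this decay, 1 was called lower and 1 higher, with a median log2 ratio of 0.11. Over all genes that passed the minimum, 4.30% were called lower and 3.43% higher, with a median of 0.06. Zfp36, which encodes tristetraprolin, was at 75.8 FPKM in SIRPα-KO and 186 FPKM in WT, and its relative Zfp36l1 at 22.6 FPKM in SIRPα-KO and 9.0 FPKM in WT.

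Il15 was the most abundant of the 10 factors in both libraries. It was at 186 FPKM in SIRPα-KO and 131 FPKM in WT, a log2 ratio of 0.50. In SIRPα-KO its level exceeded that of 97.5% of all listed genes, and in WT that of 96.3%. Il15ra encodes the chain on which macrophages present interleukin-15 and was at 72.1 FPKM in SIRPα-KO and 84.0 FPKM in WT. Il2rg, the common γ chain, was at 428 FPKM in SIRPα-KO and 352 FPKM in WT, neither called. Il2rb, which responding lymphocytes carry, was at 0.46 FPKM in SIRPα-KO and 0.20 FPKM in WT. Cd3e was at 0.06 FPKM in SIRPα-KO and listed at 0 in WT, and Cd3g was listed at 0 in both. The summed level of 9 T and NK cell markers was 15.5 FPKM in SIRPα-KO and 16.5 FPKM in WT, led by Cd4 and Cd3d.

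**Figure D4:**
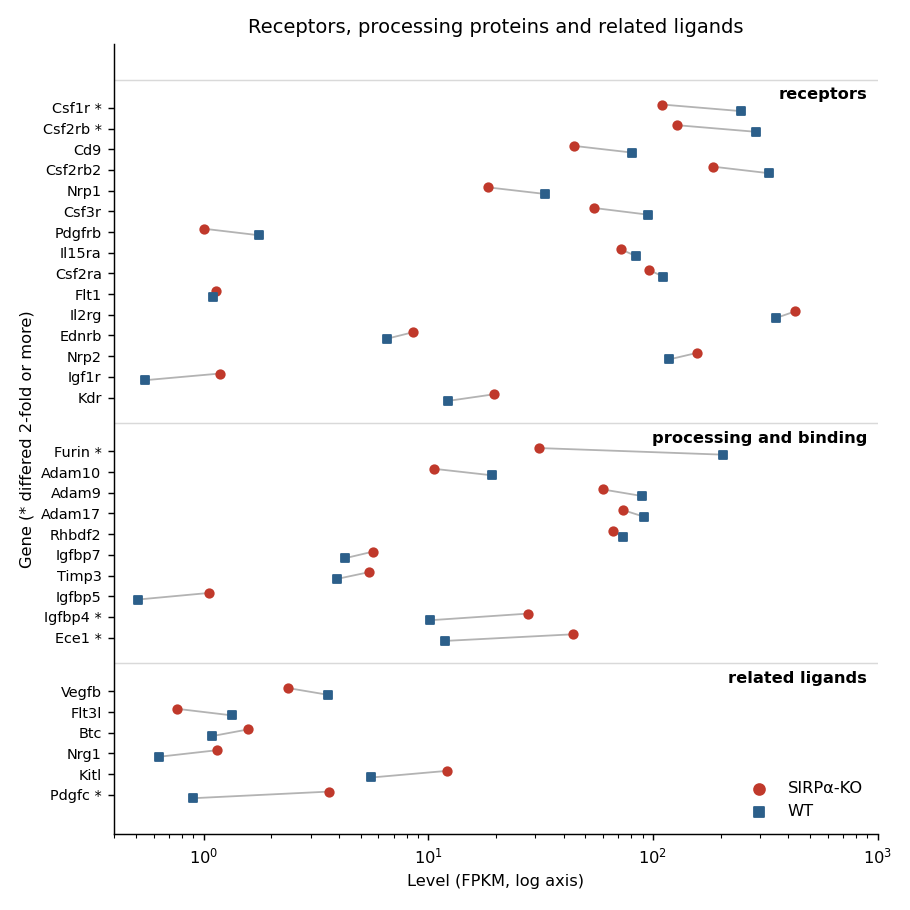
Level (FPKM, log axis) of the receptors, processing and binding proteins and related ligands that passed the minimum, in the SIRPα-KO library (red circles) and the WT library (blue squares); asterisks mark genes called at 2-fold or more. Furin has the widest gap, at 31.1 FPKM in SIRPα-KO and 206 FPKM in WT, and Ece1, Igfbp4 and Pdgfc lie to the right in SIRPα-KO.

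The partner genes can also be counted as groups, against 4.30% called lower, 3.43% called higher and a median log2 ratio of 0.06 over all genes that passed the minimum. Of 20 receptor genes, 15 passed the minimum, 2 were called lower (Csf1r and Csf2rb) and 0 higher, with a median log2 ratio of -0.22. Of 25 related ligands, 6 passed, 1 was called higher (Pdgfc) and 0 lower, with a median of 0.35. Kitl, the stem cell factor, was just short of the limit at 12.1 FPKM in SIRPα-KO and 5.58 FPKM in WT. Of 19 processing and binding proteins, 10 passed, 2 were called higher (Ece1 and Igfbp4) and 1 lower (Furin), with a median of 0.10.

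Downstream of receptor tyrosine kinases, 15 feedback and target genes of the RAS-ERK pathway gave no common direction. Of the 9 that passed the minimum, 2 were called higher and 1 lower, and the median was -0.26. Over all genes that passed it, 3.43% were called higher and 4.30% lower, with a median of 0.06. Dusp4, a phosphatase of MAP kinases, was at 0.37 FPKM in SIRPα-KO and 21.6 FPKM in WT. Dusp5, a phosphatase of ERK, was at 29.3 FPKM in SIRPα-KO and 8.35 FPKM in WT, and Phlda1 at 11.7 and 3.96 FPKM. The sprouty genes Spry1, Spry2 and Spry4 were below 1 FPKM in both libraries. For the remaining cell types, summed marker levels were 54.4 FPKM in SIRPα-KO and 49.4 FPKM in WT for 10 dendritic cell genes. Of the 7 dendritic cell genes that passed the minimum, 2 were called higher (Ccr7 and Dpp4) and 1 lower (Itgax). Without Itgax, the most abundant over both libraries, the sums were 42.4 FPKM in SIRPα-KO and 21.6 FPKM in WT. Of these 9 other genes, 4 were higher and 5 lower in SIRPα-KO. Ccr7 was the largest of them, at 23.8 FPKM in SIRPα-KO and 6.93 FPKM in WT. The sums were 44.5 FPKM in SIRPα-KO and 46.3 FPKM in WT for 6 B cell genes, and without Blnk, which made up most of it, 2.47 and 5.91 FPKM. For 6 mast cell and basophil genes they were 27.0 FPKM in SIRPα-KO and 23.9 FPKM in WT, mostly Hdc, which was nearly equal (20.13 and 20.09 FPKM). The other 5 mast cell and basophil genes were all higher in SIRPα-KO, with sums of 6.84 FPKM in SIRPα-KO and 3.76 FPKM in WT, and none was called.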

How the data were processed

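RNA was sequenced from 1 pooled library per genotype. The authors deposited 1 value per gene and library, taken here as FPKM because low values step with transcript length and the tables name no unit. The submitters' processing notes name mm9, R 3.3.3 and DESeq2 without a role. The aligner and counter were not given in the sources used here. Because FPKM scales to the library total, a few abundant genes can shift all others. Ratios were differences of log2(FPKM + 1), which understates low genes, called at 2-fold among genes with at least 1 FPKM in 1 library, with Python 3.11.15 and pandas 2.3.3. No replicate exists, so no p-value was computed. Depth was estimated from genes with 1 listed transcript over 600 bases: 63.2% (SIRPα-KO) and 64.1% (WT) of low values corresponded to whole reads, within a tolerance of 0.15 reads, so read numbers are approximate. Intervals use the exact Clopper-Pearson method on those reads, were not computed for genes with several transcripts, and cover counting error only. The calling step was run on simulated data with known fold changes and counting noise only. That check holds no variation between pools of mice, so it says nothing on the error of these calls.

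The members and gene lists were chosen with earlier results of these data known. Named genes are the members, Sirpa, up to 3 called genes per direction in each list, receptors of called members, the most abundant marker of each cell type, and others named after their values were seen. Sequences and gene models came from RefSeq (GRCm38.p6) and GENCODE M21.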

Additional observations from a re-analysis of the deposited data

How the results depend on the processing

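Alternatives were a pseudocount of 0.1 or 5, 3 rescalings of the libraries, fold limits of 1.5 and 3, no minimum or one of 5 FPKM, and, added after the data were seen, no pseudocount. Pdgfb (log2 ratios from -3.61 to -1.61) and Pdgfa (-3.32 to -1.49) were called under all of these, and Edn1 (-1.53 to -1.05) under all but the 3-fold limit. Vegfa was called with a pseudocount of 0.1 (-1.04), with none (-1.04), with median-ratio scaling (-1.06), with trimmed-mean scaling (-1.03) and at 1.5-fold. None of the 8 members above the minimum changed direction; Csf2 and Csf3 were below it and were not recomputed with other pseudocounts or scalings. At 1.5-fold 5 members were lower, Vegfa and Hbegf joining the 3 named. Over the 6 gene lists, 6 genes were called higher and 8 lower, beside 3.43% and 4.30% of all genes that passed the minimum. The listed genes that passed it were 15 receptors, 6 related ligands and 10 processing and binding proteins. The remaining lists gave 9 RAS-ERK genes, 13 hypoxia-inducible genes and 11 decay proteins. In these lists 3 were higher with a pseudocount of 5, and 10 with no pseudocount. At 1.5-fold 13 were lower, and at 3-fold 2 were higher and 3 lower. Among all genes, 346 higher and 434 lower calls became 589 and 676 with a pseudocount of 0.1, 147 and 187 with 5, 598 and 674 with none, 1104 and 1032 at 1.5-fold, and 130 and 140 at 3-fold, as the pseudocount and limit set by construction. No paired analysis was possible because each genotype has 1 library, and for the same reason no replicate could be left out. Depth limits Csf2 and Csf3 to a few reads.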
